A study of Rattus norvegicus with 172 samples.

Results

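The 6 genes of glucocorticoid signalling described here were followed in dentate granule cells of rats across 4 models of epilepsy: the receptor genes Nr3c1 and Nr3c2, the target genes Fkbp5, Sgk1 and Tsc22d3, and the enzyme gene Hsd11b1. They were chosen by gene symbol, and each was read from its brightest probe set, the group of array probes that measures a transcript. These 6 genes were among 10758 genes tested, and 8 of the 31099 probe sets in the table carried their symbols.

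Glucocorticoids such as corticosterone are released by the adrenal gland in stress and pass into the brain. They bind the glucocorticoid receptor, the product of Nr3c1, and the mineralocorticoid receptor, the product of Nr3c2, which binds corticosterone with the higher affinity of the pair; granule cells of the dentate gyrus are known to carry both. The bound receptor moves to the nucleus and changes the transcription of its target genes. Fkbp5 encodes a co-chaperone that lowers the receptor's affinity for hormone, Sgk1 a kinase that regulates ion channels and transporters, and Tsc22d3 (also called Gilz) a protein that restrains inflammatory signalling. Hsd11b1 encodes the enzyme that turns inactive 11-keto steroid into active corticosterone inside cells.

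The samples came from 164 rats (male, Sprague-Dawley, 175 to 250 g where the labels give a weight, ages not given) and filled 172 Affymetrix arrays of a single colour. Laser capture took the granule cell bodies out of sections of 10 µm. Only RNA whose integrity number exceeded 7 was used, and captures of the same animal were combined until they reached 10 ng. Each of 7 laboratories had its own controls and 3 treated groups, which made 28 groups of 6 rats, except for 5 controls, 5 rats at day 3 and 4 rats at day 10 in the SSSE model. Laboratories that shared a model are called A and B.

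In the pilocarpine model, run by 2 laboratories, every rat, controls included, received methylscopolamine at 1 mg/kg. Treated rats then received the muscarinic agonist pilocarpine at 300 to 350 mg/kg and controls saline, and status epilepticus, a continuous seizure state, was stopped with pentobarbital after 90 min. In the kainate model, also run by 2 laboratories, rats received the glutamate receptor agonist kainic acid, or saline, every hour until status epilepticus. Laboratory A gave 5 mg/kg each time and let the seizures end by themselves after 6 to 8 h. Laboratory B began with 7.5 mg/kg, went on with 5 mg/kg and stopped the seizures with pentobarbital at 90 min. The pilocarpine, kainate and SSSE rats were killed at day 1, day 3 or day 10. SSSE was run by 1 laboratory, and kindling, a model of seizures that grow with repeated stimuli, by 2; kindled rats were taken at stage 2, 4 or 5. The labels do not spell out SSSE, and how the SSSE, kindled and matching control rats were treated is not given in the sources used here, so the models also differ in laboratory, and model and laboratory cannot be told apart.

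The deposited values were signal intensities already scaled to a common trimmed mean of 150.04 to 150.06 per array, and levels below are log2(signal + 16), so the change of a dim gene is understated. Of 10 listed granule cell markers 9 were on the array, and 8 of these, among them Prox1, Calb1 and C1ql3, passed the filter on dim probe sets. The summed signal of those 8 ran from 7680 to 25700 over the 28 groups. Of listed markers of other cells on the array, 9 of 10 passed for astrocytes, 9 of 11 for microglia and 10 of 10 for oligodendrocytes. For vessels 6 of 9 passed, for interneurons 5 of 6 and for CA pyramidal and hilar neurons 5 of 6. Their sums ran from 1940 to 20700 for astrocytes, 777 to 17400 for oligodendrocytes and 805 to 7370 for interneurons. Microglia ran from 142 to 2090, vessels from 136 to 1220 and CA pyramidal and hilar neurons from 246 to 823. Rats of 1 group could differ widely, as in oligodendrocyte sums of 2030 to 17300 in pilocarpine A controls. Sums of different probe sets do not give shares of cells. In 6 rats the correlation with their own group lay over 0.02 below the group's median: rat 4 of SSSE day 3, rat 1 of kainate A day 1, rat 5 of kainate B day 10, rats 2 and 5 of pilocarpine A day 10 and rat 2 of pilocarpine B day 10. The rat titled SSSE day 1 rat 3 is a control by its source name and harvest time. It was kept at day 1, because that gives the group sizes in the series' design text, and results that change with it are named.

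All 6 genes were above the median of their own array in all 164 rats. Over all rats the log2 level ran from 7.18 to 9.77 for Nr3c1, from 9.15 to 11.28 for Nr3c2, from 7.57 to 9.94 for Fkbp5, from 7.7 to 11.17 for Sgk1, from 6.91 to 9.16 for Tsc22d3 and from 5.93 to 8.72 for Hsd11b1. Among the 7 control groups the means of Nr3c1 ran from 8.97 to 9.51, those of Nr3c2 from 10.19 to 10.87 and those of Tsc22d3 from 7.95 to 8.58. Control levels of these 3 genes differed between laboratories (moderated F test, adjusted p = 0.0225, 0.00942 and 0.0214). For Fkbp5, Sgk1 and Hsd11b1 the adjusted p was 0.1, 0.157 and 0.27. Control levels differed in the same way for 68.9% of all genes tested, so each treated group was compared with the controls of its own laboratory.

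Promoter sequences are shown for 1 window per gene because the glucocorticoid receptor acts on its targets through DNA near or far from their start sites. RefSeq windows (build GRCr8) were found for 4 of the 6 genes, 9 windows in all, and each was searched over the 250 bases before the start. Capitals mark GGGCGG (GC box), CCAAT and TATAAA on either strand, and overlapping matches are shown as 1 run. The windows were chosen, after the matches were seen, as those with the most matches or kinds of match for each gene.
Nr3c1, chr18:31613440-31613689 (minus strand): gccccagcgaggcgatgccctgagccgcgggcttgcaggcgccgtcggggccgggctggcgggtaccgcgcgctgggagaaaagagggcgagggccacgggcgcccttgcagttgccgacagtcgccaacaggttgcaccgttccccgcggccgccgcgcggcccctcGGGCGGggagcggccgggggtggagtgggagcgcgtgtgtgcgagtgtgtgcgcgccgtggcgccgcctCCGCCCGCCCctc
Fkbp5, chr20:6543556-6543805 (minus strand): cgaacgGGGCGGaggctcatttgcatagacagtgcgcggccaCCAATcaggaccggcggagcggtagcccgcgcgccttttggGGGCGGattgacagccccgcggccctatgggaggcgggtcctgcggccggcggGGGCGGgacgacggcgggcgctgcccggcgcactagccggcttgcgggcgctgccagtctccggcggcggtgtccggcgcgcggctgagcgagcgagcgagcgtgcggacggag
Sgk1, chr1:24804832-24805081 (minus strand): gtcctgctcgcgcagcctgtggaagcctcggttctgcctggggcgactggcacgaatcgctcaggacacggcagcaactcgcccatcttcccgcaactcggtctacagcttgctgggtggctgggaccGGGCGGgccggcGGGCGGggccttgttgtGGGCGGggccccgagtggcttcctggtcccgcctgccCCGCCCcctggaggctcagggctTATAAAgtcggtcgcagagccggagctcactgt
Tsc22d3, chrX:109010035-109010284 (minus strand): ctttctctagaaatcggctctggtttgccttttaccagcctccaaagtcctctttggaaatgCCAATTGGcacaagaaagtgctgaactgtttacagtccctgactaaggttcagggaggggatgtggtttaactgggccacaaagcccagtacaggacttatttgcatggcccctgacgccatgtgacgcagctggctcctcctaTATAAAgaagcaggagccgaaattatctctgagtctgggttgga
The receptor's palindrome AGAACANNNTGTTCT was in none of the 9 windows and in 0.012% of all 33469 windows of this length, and its shorter element TGTTCT was in none of the 9 and in 17.5% of all. GGGCGG was in 7 of the 9 windows, of Nr3c1, Fkbp5, Sgk1 and Tsc22d3, against 30.5% of all windows. TATAAA was in 3 of the 9, of Sgk1 and Tsc22d3, against 12.9%, and CCAAT in 2, of Fkbp5 and Tsc22d3, against 34%. These letters describe the windows only, and the receptor's better known sites in some of these genes lie outside them.

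Across 12 comparisons of treated rats with their controls, 17 of the 72 gene values passed the test (limma, adjusted p below 0.05 over all genes tested), and 29 had an unadjusted p below 0.05. Nr3c1 was the gene called in most comparisons, lower at day 1 of pilocarpine, kainate and SSSE. Fkbp5 was higher at day 1 of kainate and SSSE, Nr3c2 lower at all 3 days of pilocarpine, and Sgk1 higher at days 1 and 3 of pilocarpine and at kindling stage 5. At day 1, 5 of the 6 genes passed in pilocarpine, where 32.1% of all genes did, 2 in kainate (41.6%) and 2 in SSSE (12.5%). At day 3 the counts were 2 in pilocarpine (11.7%), 2 in kainate (7.97%) and 0 in SSSE (3.14%). At day 10 they were 2 in pilocarpine (8.93%), 0 in kainate (6.28%) and 0 in SSSE (0.344%). In kindling 0 of the 6 passed at stage 2 (0%) and at stage 4 (0%), and 2 at stage 5 (7.1%). Where none passed, 2 genes had an unadjusted p below 0.05 at kainate day 10, 2 at SSSE day 3, 2 at kindling stage 4, and 0 at SSSE day 10 and at kindling stage 2.

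**Figure D1:**
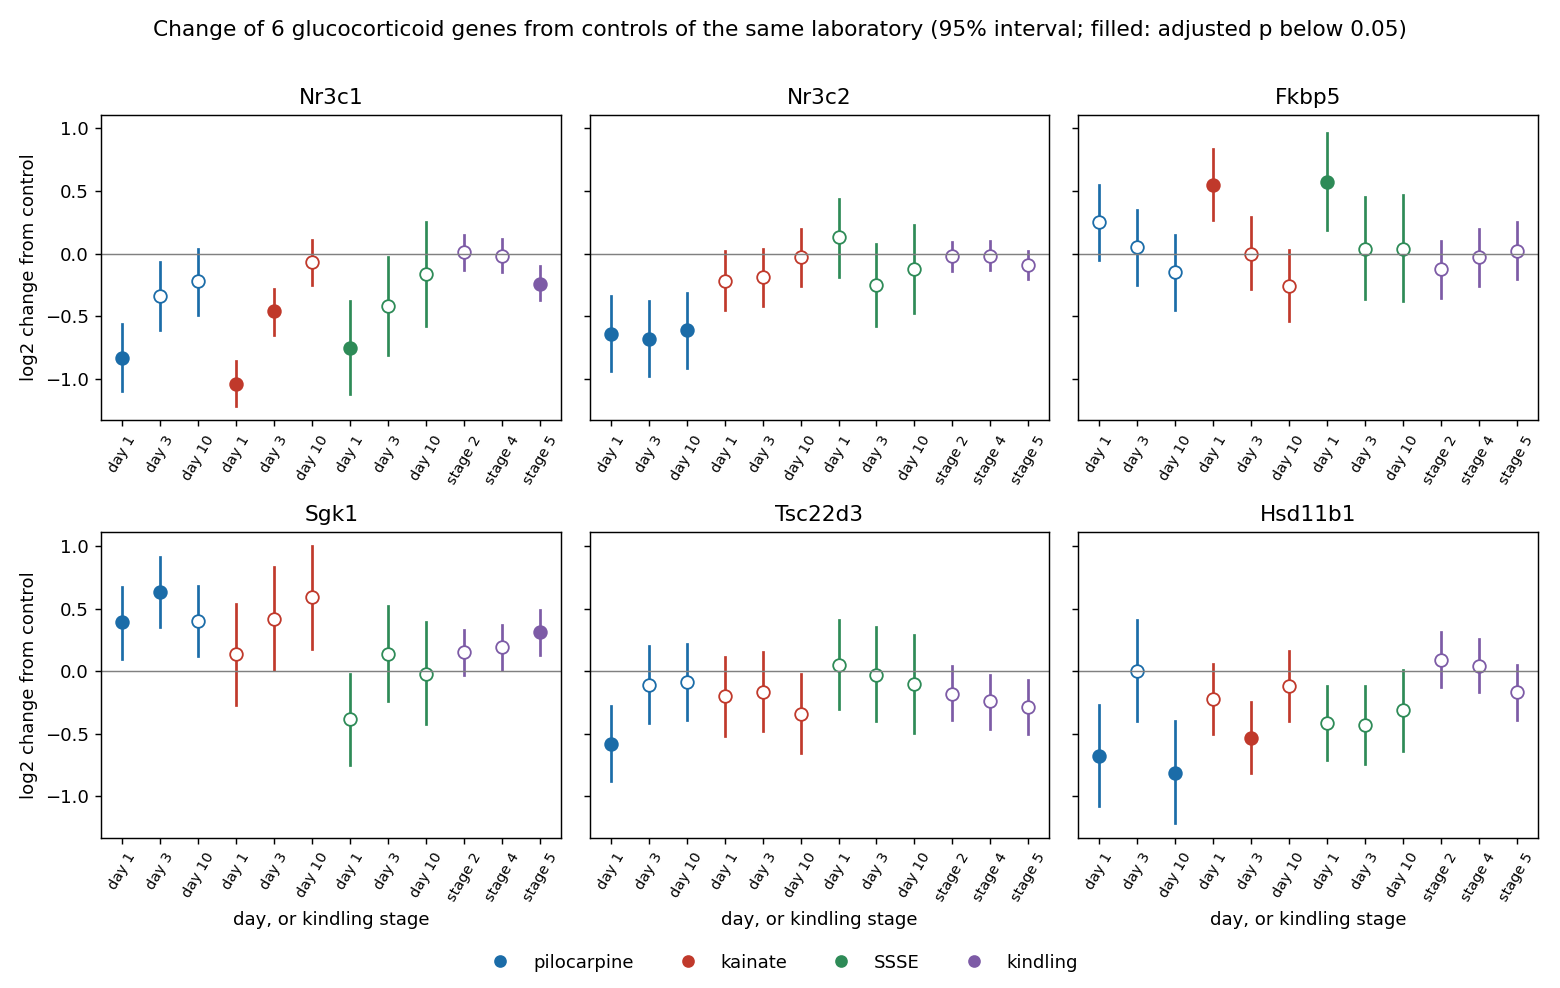
Log2 change from the controls of the same laboratory (vertical axis) for each of the 6 genes in 12 comparisons (horizontal axis, coloured by model), with points at the limma estimate, bars for its 95% interval and filled points for adjusted p below 0.05. Nr3c1 was -0.83, -1.04 and -0.75 at day 1 of pilocarpine, kainate and SSSE and nearer to 0 at day 10.

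Nr3c1, the glucocorticoid receptor gene, fell at day 1 in pilocarpine, kainate and SSSE rats, to 56.2%, 48.7% and 59.5% of control. In kainate laboratory A the 6 controls had levels from 9.01 to 9.49 (median 9.13) and the 6 day 1 rats from 8.18 to 8.33 (median 8.25). In kainate laboratory B the controls ran from 8.77 to 9.31 (median 9.16) and the day 1 rats from 7.49 to 8.32 (median 8.03). All 12 day 1 kainate rats lay below every control of their laboratory. The change was -1.04 ± 0.09 (SE; adjusted p = 5.29e-13), -0.93 in laboratory A and -1.15 in B.

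In pilocarpine laboratory A the controls of Nr3c1 ran from 8.52 to 9.4 (median 9.02) and the day 1 rats from 7.18 to 8.5 (median 8.27). In laboratory B the controls ran from 8.75 to 9.4 (median 8.99) and the day 1 rats from 7.77 to 8.91 (median 8.24). Of the 12 day 1 rats, 11 lay below all controls of their laboratory. The change was -0.83 ± 0.13 (adjusted p = 4.13e-06), -0.87 in laboratory A and -0.8 in B. The SSSE controls were at 9.41, 9.62, 9.47, 9.77 and 9.25 and the day 1 rats at 8.68, 8.53, 8.84, 9.02, 8.04 and 9.43. Only the last of these 6 rats reached the range of the controls, and the change was -0.75 ± 0.18 (adjusted p = 0.012). With day 1 rat 3 counted as a control it was -0.65 and no longer passed (adjusted p = 0.0935).

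At day 3 Nr3c1 was still lower in kainate rats, with a change of -0.46 ± 0.09 (adjusted p = 0.000326). It was -0.31 in laboratory A and -0.61 in B, and 11 of 12 rats lay below their controls. Fitted alone, laboratory A did not pass (adjusted p = 0.0944). The day 3 values were -0.34 ± 0.13 in pilocarpine (adjusted p = 0.0883, and 0.00899 with all 28 groups fitted together) and -0.42 ± 0.19 in SSSE (adjusted p = 0.227), which did not pass. By day 10 the values were -0.22, -0.07 and -0.16 in pilocarpine, kainate and SSSE, with adjusted p of 0.309, 0.739 and 0.871. Tested between days, Nr3c1 rose from day 1 to day 3 by 0.57 ± 0.09 in kainate (adjusted p = 2.38e-06) and by 0.49 ± 0.13 in pilocarpine (adjusted p = 0.00623). It rose further from day 3 to day 10 in kainate, by 0.39 ± 0.09 (adjusted p = 0.0223). From day 1 to day 10 the rise was 0.97 in kainate (adjusted p = 1.1e-11) and 0.61 in pilocarpine (adjusted p = 0.00184). In SSSE it was 0.59 and did not pass (adjusted p = 0.0686).

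In kindled rats Nr3c1 fell at stage 5 by 0.24 on the log2 scale (SE 0.07, adjusted p = 0.0279), to 84.9% of control. The stage 5 rats ran from 8.78 to 9.26 in laboratory A and from 8.83 to 9.42 in B, against controls from 9.07 to 9.58 and from 9.04 to 9.41, so the groups overlapped in both. The change was -0.38 in laboratory A and -0.09 in B, and with all 28 groups fitted together it did not pass (adjusted p = 0.386). Stages 2 and 4 were at 0.01 and -0.02, which averaged opposite values of the laboratories. Laboratory A was at -0.15 and -0.24, and B at 0.17 and 0.21. The difference between laboratories at stage 4 was -0.45 and did not pass (limma, adjusted p = 0.942, unadjusted p = 0.00209). Stage 5 was lower than stage 2 by -0.24 (adjusted p = 0.0414), and 2.65% of genes passed that comparison. A second Nr3c1 probe set, whose median log2 level was 4.16, was above the array median in 0 rats and gave no usable level.

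Markers of granule cells were also lower at day 1. In pilocarpine 7 of 8 fell, where 16.3% of all genes did, in kainate 7 of 8 (19.4%) and in SSSE 2 of 8 (7.02%), with median changes of -0.66, -0.8 and -0.32. At kainate day 3 and kindling stage 5, where Nr3c1 was also called, 0 of 8 (3.3%) and 1 of 8 (3.87%) fell, with medians of -0.1 and 0.04. In kainate laboratory A their summed signal ran from 12100 to 14700 in controls and from 7680 to 8550 at day 1. C1ql3 fell by 1.67 and 1.53 on the log2 scale and Calb1, which encodes the calcium buffer calbindin, fell by 1 and by 1.04 in pilocarpine and kainate. Fewer granule cells in a sample and less RNA per cell cannot be told apart here, and the part of these markers in the change of Nr3c1 was not tested.

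Nr3c2, the mineralocorticoid receptor gene, was lower at all 3 times in pilocarpine rats, at 64.2%, 62.4% and 65.5% of control. In laboratory A the controls ran from 10.25 to 11.28 (median 10.96) and the day 1 rats from 9.72 to 10.34 (median 10.09). In laboratory B they ran from 10.38 to 11.14 (median 10.56) and from 9.87 to 10.5 (median 10.14). The groups overlapped a little, with 9 of the 12 day 1 rats below all controls of their laboratory. The change was -0.64 ± 0.15 at day 1 (adjusted p = 0.000886), -0.68 ± 0.15 at day 3 (adjusted p = 0.00143) and -0.61 ± 0.15 at day 10 (adjusted p = 0.00709). It was -0.81 in laboratory A and -0.47 in B at day 1, -0.96 and -0.4 at day 3, and -0.69 and -0.53 at day 10. Fitted alone, laboratory B did not pass at any of the 3 days (adjusted p = 0.0932, 0.288 and 0.0814), nor laboratory A at day 10 (adjusted p = 0.181). Without the 3 rats at day 10 that lay apart from their groups, the day 10 change was -0.44 and no longer passed (adjusted p = 0.0611).

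No such change passed in the other models. Nr3c2 was at -0.22, -0.19 and -0.03 at days 1, 3 and 10 of kainate, at 0.13, -0.25 and -0.12 in SSSE, and at -0.02, -0.02 and -0.09 in kindling. At kainate day 1 laboratory B spread widely, from 9.21 to 10.76, while its controls ran from 10.04 to 10.64. The pilocarpine change differed from that of SSSE at day 1, by -0.77 (95% interval -1.17 to -0.36, adjusted p = 0.0237), and 2.36% of genes passed that comparison. Against kainate the difference was -0.42 at day 1, -0.49 at day 3 and -0.58 at day 10 (adjusted p = 0.113, 0.128 and 0.0618), none of which passed.

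**Figure D2:**
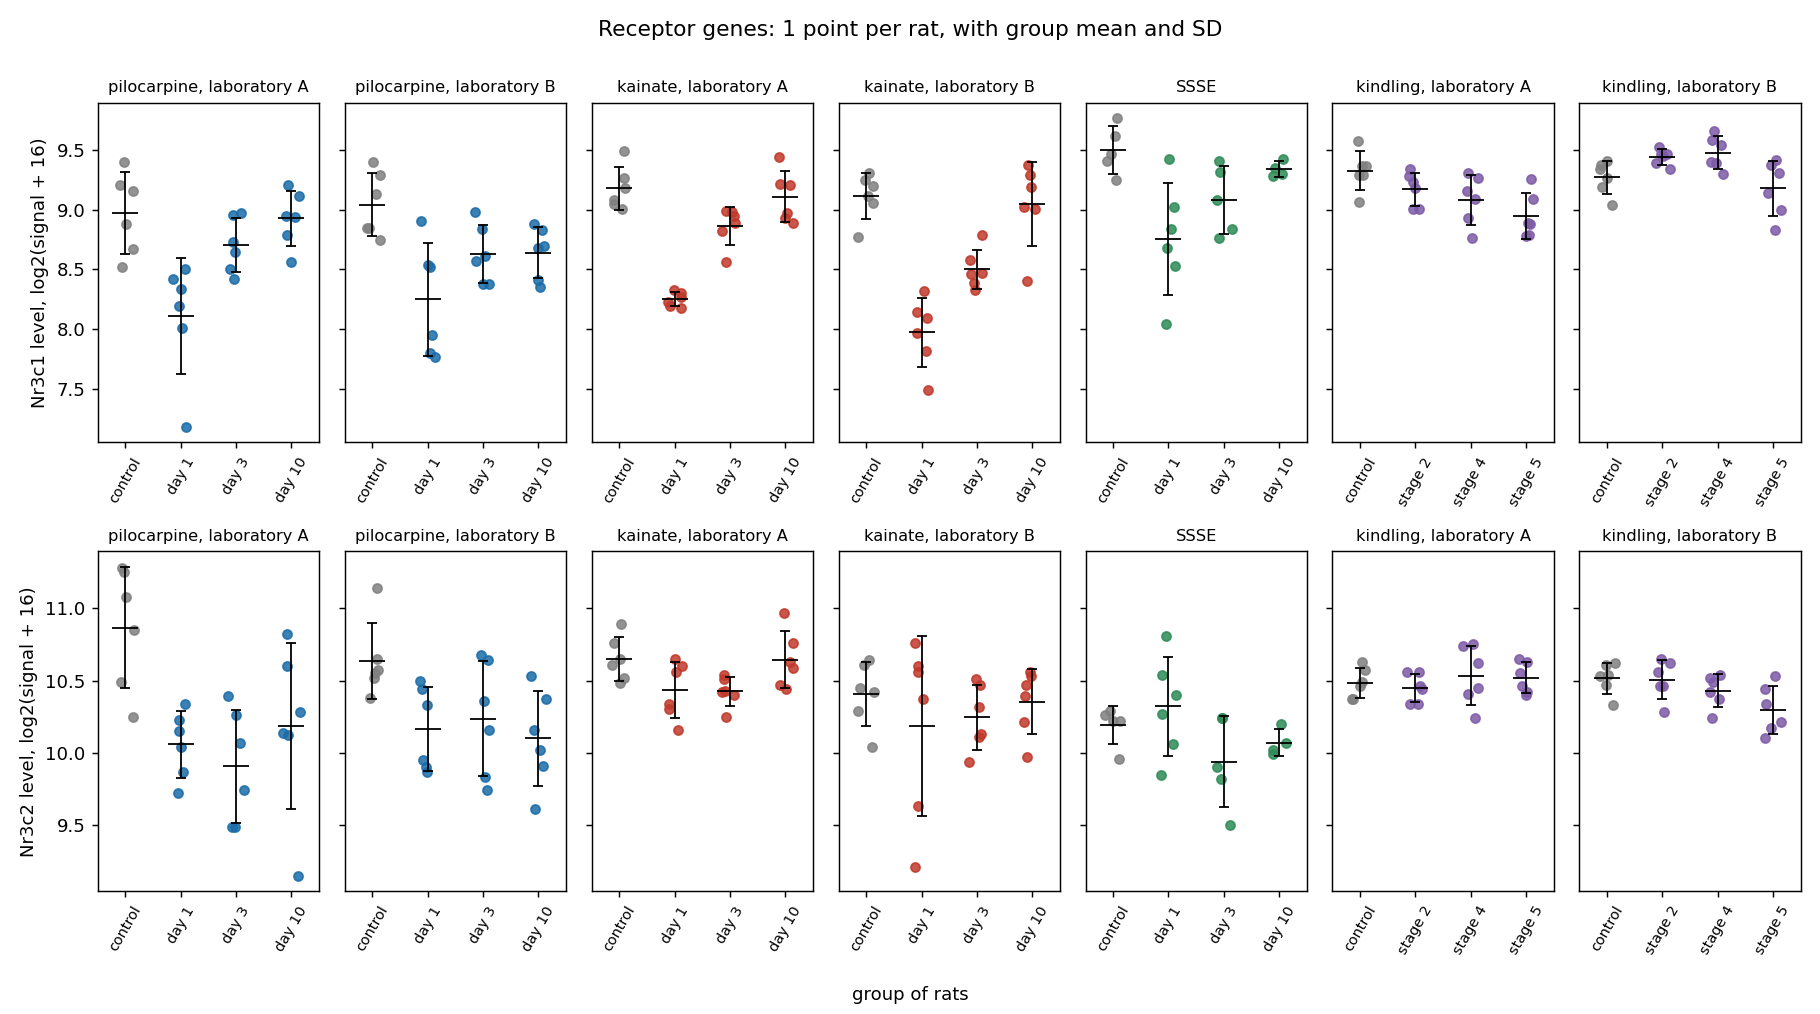
Log2(signal + 16) of Nr3c1 (top) and Nr3c2 (bottom) in each rat of the 28 groups, with 1 panel per laboratory, black marks for the group mean and bars for the SD. All 12 day 1 kainate rats lie below their controls for Nr3c1, and Nr3c2 changed by -0.64, -0.68 and -0.61 at days 1, 3 and 10 of pilocarpine over both laboratories.

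Fkbp5, which encodes the receptor's co-chaperone and is a much used readout of receptor activity, rose at day 1 in kainate and SSSE rats, to 146% and 149% of control. In kainate laboratory B the controls ran from 7.98 to 9.05 (median 8.27) and the day 1 rats from 8.45 to 9.94 (median 9.14). In laboratory A they ran from 7.99 to 8.99 (median 8.78) and from 8.77 to 9.15 (median 8.9). Only 5 of the 12 treated rats were above all their controls. The change was 0.55 ± 0.14 (adjusted p = 0.00145), 0.24 in laboratory A and 0.86 in B; laboratory A alone did not pass (adjusted p = 0.343). The second probe set gave 0.79 (adjusted p = 0.000204).

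In SSSE the Fkbp5 controls were at 8.89, 8.34, 8.36, 8.84 and 8.84 and the day 1 rats at 9.49, 9.18, 9.32, 9.02, 9.51 and 8.86. The last of these rats lay within the range of the controls and the other 5 above it. The change was 0.57 ± 0.18 (adjusted p = 0.0457). This call was not firm, since it was lost in 15 of 20 fits that each left out 1 SSSE rat, with values from 0.5 to 0.65 over the 20. With day 1 rat 3 as a control it was 0.45 (adjusted p = 0.219). Pilocarpine day 1 was at 0.25 ± 0.15 (adjusted p = 0.206), while the second probe set was at 0.34 (adjusted p = 0.0425).

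Fkbp5 was back near control at day 3, at 0.05, 0 and 0.04 in pilocarpine, kainate and SSSE. In kainate it fell from day 1 to day 3 by 0.55 on the log2 scale (adjusted p = 0.00221) and from day 1 to day 10 by 0.81 (adjusted p = 1.31e-05). At day 10 it was at -0.15, -0.26 and 0.04 in the 3 models, and in kindling at -0.12, -0.03 and 0.02. Across the 164 rats Fkbp5 and Nr3c1 had a correlation of -0.5 after centring on each laboratory and of -0.27 after the group means were also removed. The rats shared laboratories and treatment groups, so these correlations are a description.

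Sgk1, the kinase gene, was higher in pilocarpine rats at day 1 and day 3, at 131% and 155% of control. At day 3, laboratory A had controls from 8.38 to 9.15 (median 8.64) and treated rats from 9.09 to 10.05 (median 9.3). Laboratory B had controls from 7.96 to 8.73 (median 8.49) and treated rats from 8.77 to 9.04 (median 8.95). Of the 12 treated rats, 11 lay above all their controls. The day 3 change was 0.63 ± 0.14 (adjusted p = 0.00149), 0.73 in laboratory A and 0.53 in B. Fitted alone, laboratory B did not pass (adjusted p = 0.108). The day 1 change was 0.39 ± 0.14 (adjusted p = 0.0309) and came from laboratory A, with 0.75, while laboratory B was at 0.02; the difference between them was 0.73 ± 0.28 (adjusted p = 0.38). It did not pass with array weights (0.31, adjusted p = 0.057) or without rat 1 of laboratory A day 1 (0.35, adjusted p = 0.0578). At day 10 the value was 0.4 ± 0.14 (adjusted p = 0.0624). That value passed with all 28 groups fitted together (adjusted p = 0.0414) and with array weights (adjusted p = 0.0348).

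In kainate Sgk1 was at 0.14, 0.42 and 0.59 at days 1, 3 and 10, none of which passed (adjusted p = 0.632, 0.23 and 0.0719). Its spread at day 10 was wide, from 7.82 to 10.21 in laboratory A and from 8.88 to 11.17 in B. Without rat 1 of kainate B day 10 the day 10 value was 0.67 (adjusted p = 0.0355). It also passed with all 28 groups fitted together (0.59, adjusted p = 0.00589). The day 3 value passed with array weights (0.48, adjusted p = 0.0177). In SSSE the value at day 1 was -0.38 ± 0.17 (adjusted p = 0.15), on the other side of 0 from pilocarpine, and the difference of the 2 models, 0.77, did not pass (adjusted p = 0.104). With array weights the SSSE value was -0.57 (adjusted p = 0.0175). In kindling Sgk1 rose at stage 5 by 0.31 ± 0.09 (adjusted p = 0.0279), 0.28 in laboratory A and 0.33 in B. The stage 5 rats ran from 8.43 to 9.06 in laboratory A and from 9.07 to 9.62 in B, against controls from 8.27 to 8.86 and from 8.57 to 9.28. The call was lost without rat 1 of laboratory B stage 5 (0.27, adjusted p = 0.0669) and with all 28 groups fitted together (adjusted p = 0.497).

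**Figure D3:**
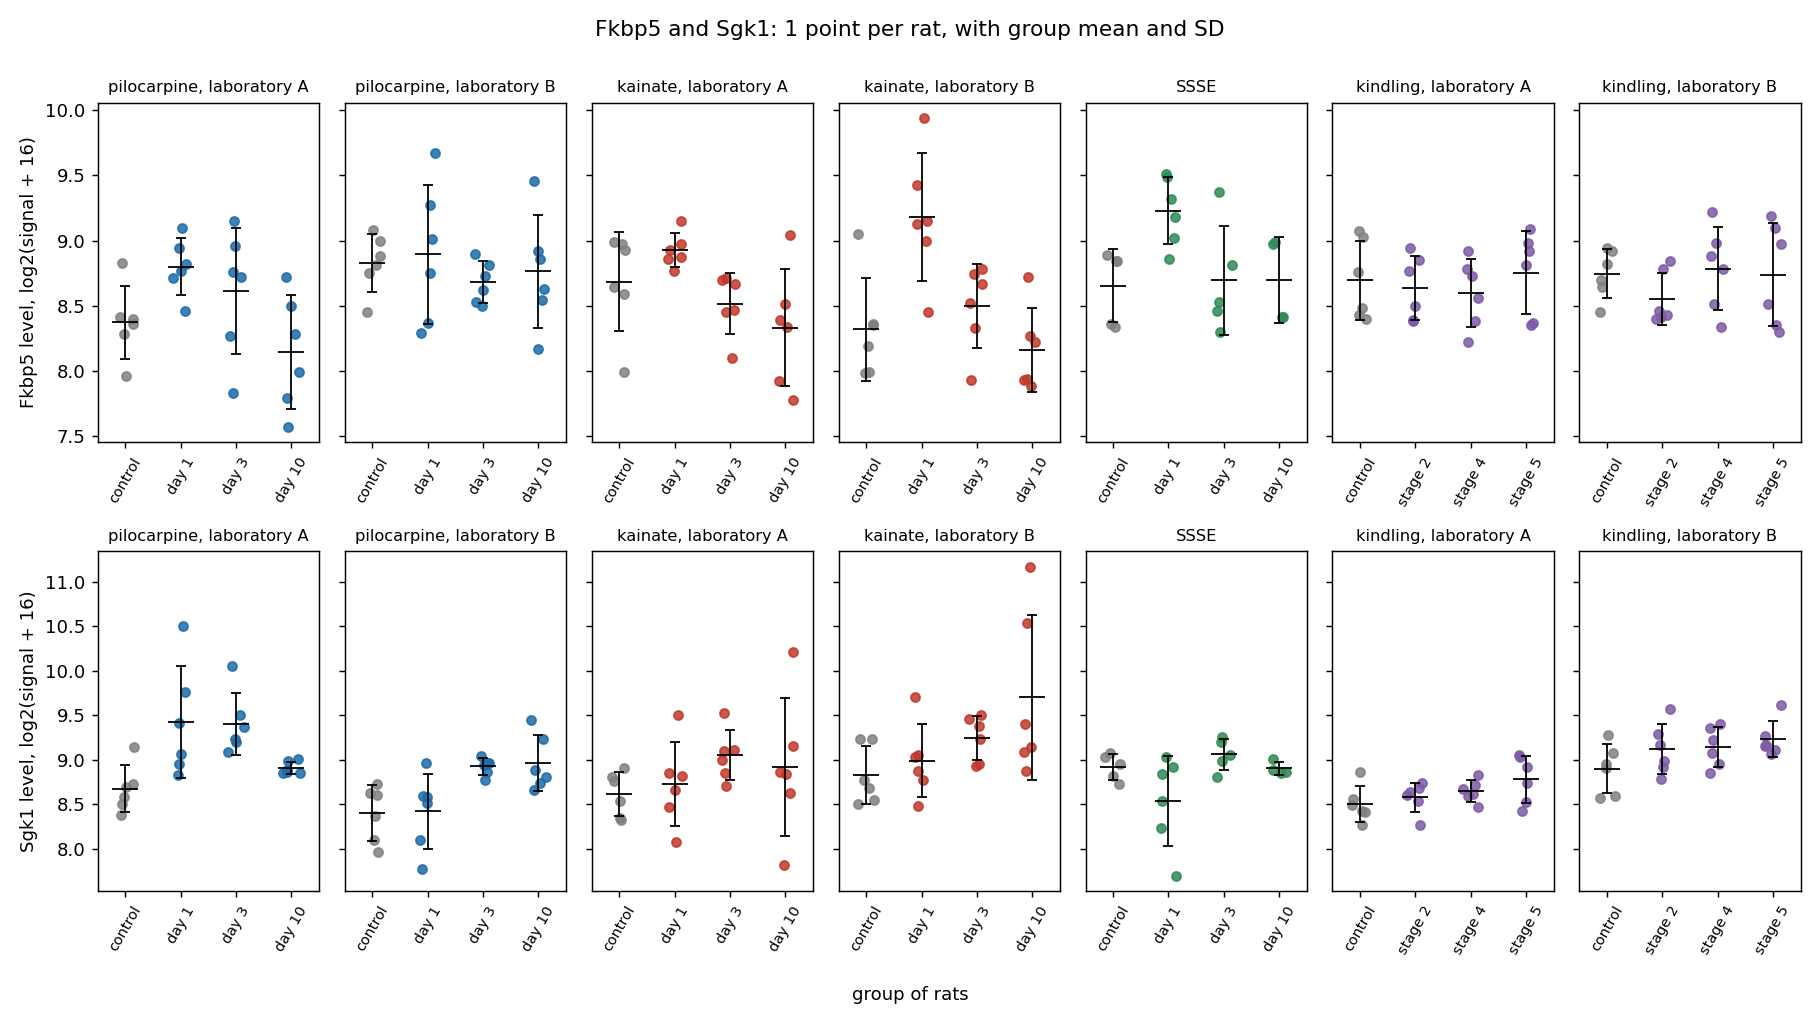
Log2(signal + 16) of Fkbp5 (top) and Sgk1 (bottom) in each rat of the 28 groups, with 1 panel per laboratory, black marks for the group mean and bars for the SD. Fkbp5 reaches 9.94 at day 1 in kainate laboratory B, and Sgk1 is above all controls in 11 of 12 pilocarpine rats at day 3.

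Tsc22d3, which encodes a leucine zipper protein induced by glucocorticoids, fell at day 1 in pilocarpine rats, to 66.8% of control. In laboratory A the controls ran from 8.09 to 8.91 (median 8.62) and the day 1 rats from 6.91 to 8.3 (median 7.89). In laboratory B they ran from 7.61 to 8.23 (median 7.93) and from 6.94 to 8.17 (median 7.51). In all, 8 of the 12 rats lay below their controls. The change was -0.58 ± 0.15 (adjusted p = 0.00218), -0.78 in laboratory A and -0.38 in B, and laboratory B alone did not pass (adjusted p = 0.195). It rose again from day 1 to day 3 by 0.48 (adjusted p = 0.0171) and to day 10 by 0.5 (adjusted p = 0.0189). At days 3 and 10 it was at -0.11 and -0.09 from control. Most of these rises came from laboratory A, with means of 7.8, 8.56 and 8.67 at days 1, 3 and 10. In laboratory B the means were 7.57, 7.76 and 7.68. The day 10 change from control was 0.1 in A and -0.27 in B.

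The other models gave Tsc22d3 values of -0.2, -0.17 and -0.34 for kainate, 0.05, -0.03 and -0.1 for SSSE and -0.18, -0.24 and -0.29 for kindling, and none passed. The smallest adjusted p among them was 0.0952, at kindling stage 5.

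Hsd11b1, the steroid-activating enzyme gene, fell in pilocarpine rats at day 1 and day 10 and in kainate rats at day 3, to 62.5%, 57.2% and 69.2% of control. In pilocarpine laboratory B the controls ran from 7.17 to 7.53 (median 7.43) and the day 10 rats from 5.93 to 7 (median 6.4), with no overlap. In laboratory A they ran from 6.69 to 8.5 (median 7.55) and from 6.07 to 8.01 (median 6.87), with overlap. The day 10 change was -0.81 ± 0.2 (adjusted p = 0.00749), -0.63 in laboratory A and -0.98 in B. Without the 3 rats at day 10 that lay apart it was -0.58 and no longer passed (adjusted p = 0.0853). At day 1 it was -0.68 ± 0.2 (adjusted p = 0.00758), -0.91 in laboratory A and -0.45 in B. Fitted alone, neither laboratory passed at day 1 (adjusted p = 0.0517 and 0.136), nor laboratory A at day 10 (adjusted p = 0.428).

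At day 3 of pilocarpine, between these falls, Hsd11b1 was at 0, with 0.33 in laboratory A and -0.32 in B. The rise from day 1 to day 3 was 0.68 ± 0.2 (adjusted p = 0.0112). The fall from day 3 to day 10 was 0.81 on the log2 scale (adjusted p = 0.0246). Group means at days 1, 3 and 10 were 6.67, 7.9 and 6.95 in laboratory A and 6.93, 7.05 and 6.39 in B. Most of the rise thus came from laboratory A, and whether the laboratories differed in it was not tested. In kainate the day 3 change was -0.53 ± 0.14 (adjusted p = 0.00908), -0.66 in laboratory A and -0.4 in B. Of the 12 rats, 7 lay below their controls. Fitted alone, neither laboratory passed there (adjusted p = 0.0642 and 0.407). Days 1 and 10 of kainate were at -0.22 and -0.12. In SSSE the values were -0.41, -0.43 and -0.31, none of which passed (adjusted p = 0.0576, 0.11 and 0.552). With array weights they were -0.44, -0.55 and -0.39 and passed (adjusted p = 0.00892, 0.00268 and 0.036). The day 1 value also passed in 4 of 20 fits that each left out 1 SSSE rat. In kindling Hsd11b1 was at 0.09, 0.04 and -0.17, and none passed.

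**Figure D4:**
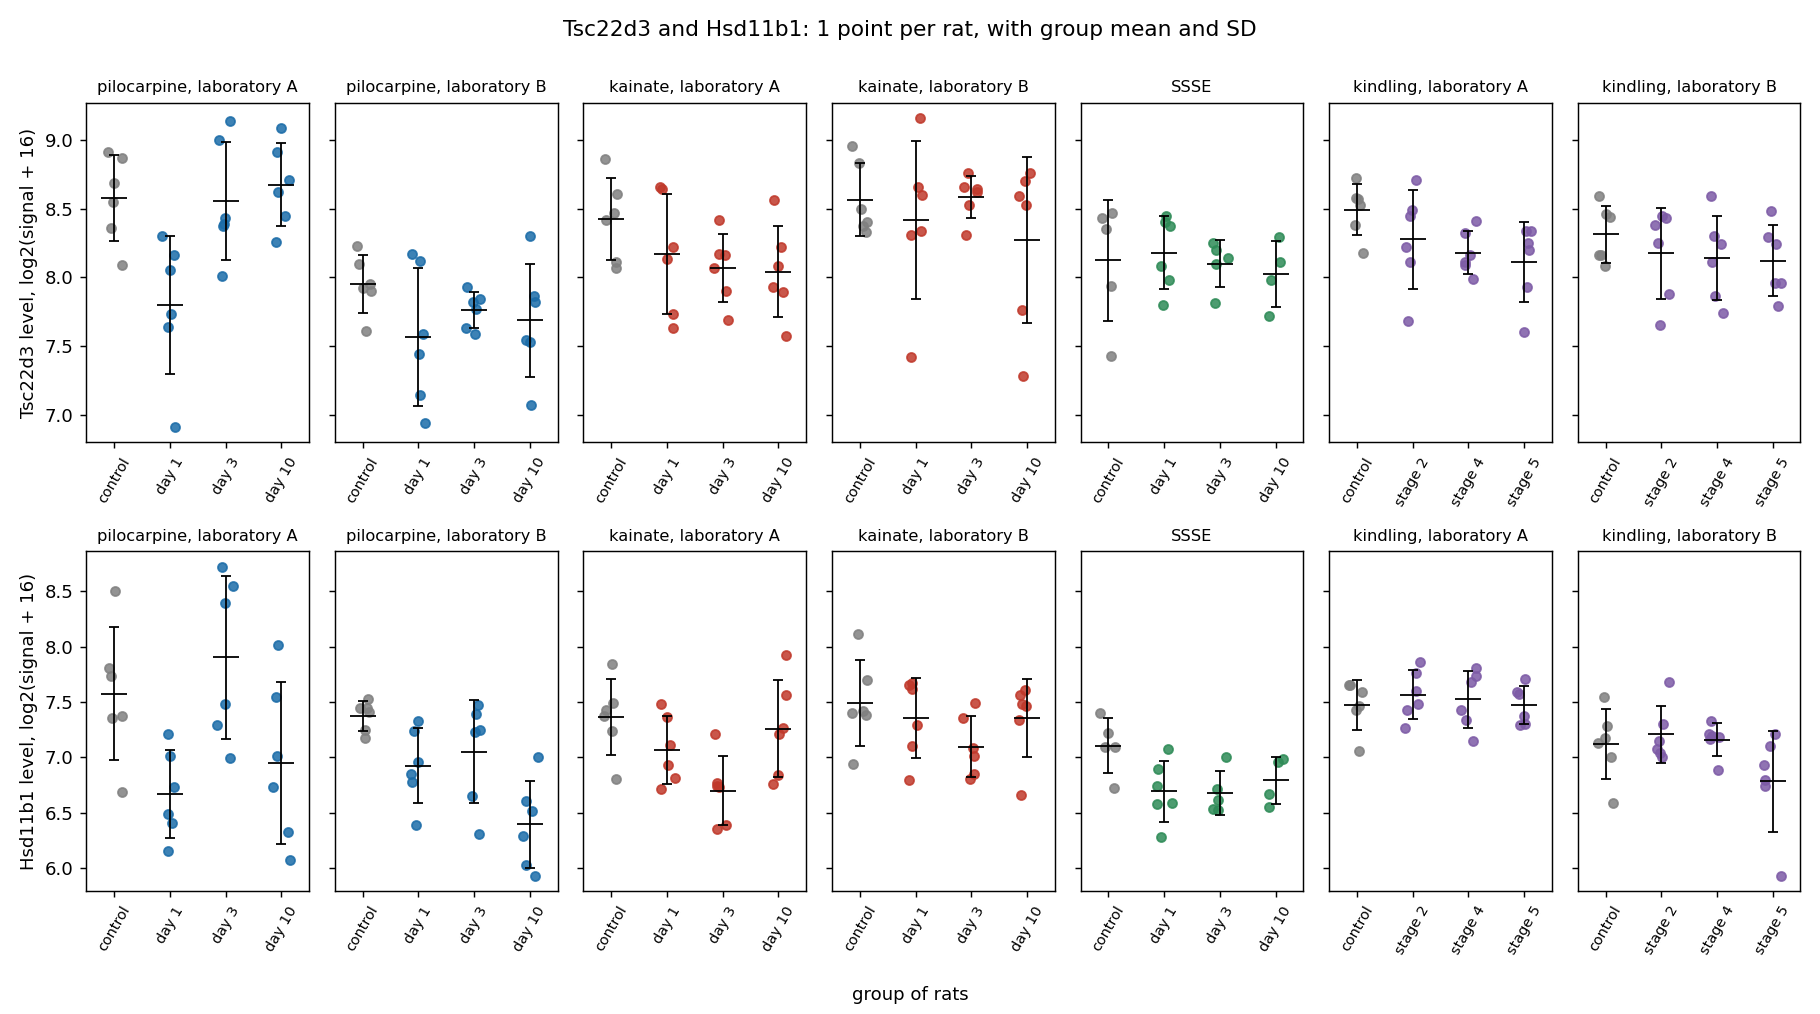
Log2(signal + 16) of Tsc22d3 (top) and Hsd11b1 (bottom) in each rat of the 28 groups, with 1 panel per laboratory, black marks for the group mean and bars for the SD. For Hsd11b1 the pilocarpine B rats at day 10 run from 5.93 to 7, below all 6 controls.

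Astrocyte markers also differed from control in pilocarpine. At day 1, 6 of 9 were lower and 1 higher, with a median change of -0.78, where 16.3% of all genes were lower and 15.8% higher. At day 3, 0 were lower and 4 higher (3.92% and 7.74%), with a median of 0.7, and at day 10, 2 were lower and 1 higher (5.11% and 3.82%), with a median of -0.21. Their summed signal in laboratory B ran from 4650 to 6300 in controls and from 1940 to 7850 at day 1. There it ran from 5790 to 8300 at day 3 and from 1950 to 5310 at day 10. In laboratory A the ranges were 5660 to 11900, 2120 to 5090, 9080 to 20700 and 5980 to 11700. At day 10 the median sum was above that of controls in laboratory A (9610 against 5820) and below it in B (3950 against 5190). Gja1, the gap junction gene of astrocytes, fell by 1.57 at day 1, and Gfap, the intermediate filament gene of reactive astrocytes, rose by 2.43 at day 3. In kainate at day 3, where Hsd11b1 fell, 2 of 9 were higher and 0 lower (4.67% and 3.3%), with a median of 0.18. At day 1 of kainate and SSSE, where Hsd11b1 was at -0.22 and -0.41 and did not pass, 6 of 9 (19.4%) and 4 of 9 (7.02%) were lower, with medians of -0.5 and -0.45, and 1 of 9 was higher in each (22.2% and 5.51%). Microglia markers were higher at day 3, 7 of 9 in pilocarpine (7.74%) and 8 of 9 in kainate (4.67%). The part of these cells in the changes of the 6 genes was not tested.

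Differences between the laboratories, the days and the models were tested directly. The kainate laboratories also differed in first dose and in how the seizures ended, so laboratory and protocol cannot be told apart there. Of 54 tests of laboratory A against B, 0 passed and 6 had an unadjusted p below 0.05 (limma, lowest adjusted p = 0.38). Among these 6 were the tests of Nr3c1 at kindling stages 2, 4 and 5. Of all genes, 0.0093% passed for kainate day 1 and 0% for the other pilocarpine, kainate and kindling comparisons. The 95% intervals lay within 1 log2 unit in 12 of 18 pilocarpine tests, 15 of 18 kainate tests and 18 of 18 kindling tests, so larger differences were not excluded in the rest. Of the 15 called changes of these models, laboratory A fitted alone lost 8 and laboratory B lost 10.

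Of 72 tests between times or stages, 12 passed and 23 had an unadjusted p below 0.05. For pilocarpine, 3 genes passed between days 1 and 3, where 23.2% of all genes did, 2 between days 1 and 10 (15.9%) and 1 between days 3 and 10 (1.68%). For kainate, 2 passed between days 1 and 3 (31.1%), 2 between days 1 and 10 (33%) and 1 between days 3 and 10 (0.744%). For SSSE, 0 passed in each, with 3, 2 and 0 at an unadjusted p below 0.05 (0.604%, 5.85% and 0% of all genes). For kindling, 0 passed between stages 2 and 4 (0%), 1 between stages 2 and 5 (2.65%) and 0 between stages 4 and 5 (0.0186%), with 0, 2 and 1 at an unadjusted p below 0.05.

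Of 54 tests between the pilocarpine, kainate and SSSE models on the same day, 1 passed, that of Nr3c2 between pilocarpine and SSSE at day 1, and 12 had an unadjusted p below 0.05. Pilocarpine against kainate gave 3.63%, 0.232% and 0.465% of all genes at days 1, 3 and 10, pilocarpine against SSSE 2.36%, 0.177% and 0%, and kainate against SSSE 0.744%, 0% and 0%. So Nr3c1, Fkbp5, Sgk1, Tsc22d3 and Hsd11b1 were not shown to differ between models, and their intervals were wide: at day 1 the difference of Tsc22d3 between pilocarpine and SSSE was -0.64 (95% interval -1.13 to -0.14, adjusted p = 0.15).

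Genes known from other tissues to respond to glucocorticoids were read from a list of 30, of which 26 were tested. At day 1, 10 rose and 5 fell in pilocarpine, against 15.8% and 16.3% of all genes, and 8 rose and 6 fell in kainate, against 22.2% and 19.4%. In SSSE 2 rose and 3 fell, against 5.51% and 7.02%. The median change was 0.18, 0.11 and 0.09, and that of all genes 0.003, 0.016 and 0. Cdkn1a, the cell cycle inhibitor p21, rose by 2.13 ± 0.34 in pilocarpine (adjusted p = 3.24e-06) and by 2.12 ± 0.23 in kainate (adjusted p = 3.13e-10). Klf15, a transcription factor that the receptor induces in other tissues, changed by -1.3, -1.09 and -1.08 in pilocarpine, kainate and SSSE, and Ndrg2 by -1.18, -1.08 and -1.14. Pdk4, a kinase that limits glucose oxidation, rose by 1.24 at day 3 of both pilocarpine and kainate.

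At later times the list gave 4 genes up and 2 down at pilocarpine day 3 (7.74% and 3.92% of all genes), 1 up and 4 down at day 10 (3.82% and 5.11%), 3 up and 2 down at kainate day 3 (4.67% and 3.3%) and 0 up and 4 down at day 10 (2.57% and 3.71%). Rasd1, a small GTPase induced by dexamethasone, rose at day 1 by 1.06 in pilocarpine and by 0.67 in kainate and was at -0.28 in SSSE (adjusted p = 0.291). It fell at day 3 by 1.07 in pilocarpine, by 0.97 in kainate and by 0.88 in SSSE. At kindling stage 5, 1 gene rose and 3 fell (3.23% and 3.87%), among them Cdkn1c, Rasd1 and Arrdc2 at -0.95, -0.7 and -0.64. At kindling stages 2 and 4, 0 of the 26 passed (0% of all genes). At SSSE day 10, 0 rose and 0 fell (0.177% and 0.167%), and at SSSE day 3, 0 rose and 2 fell (1.66% and 1.48%).

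**Figure D5:**
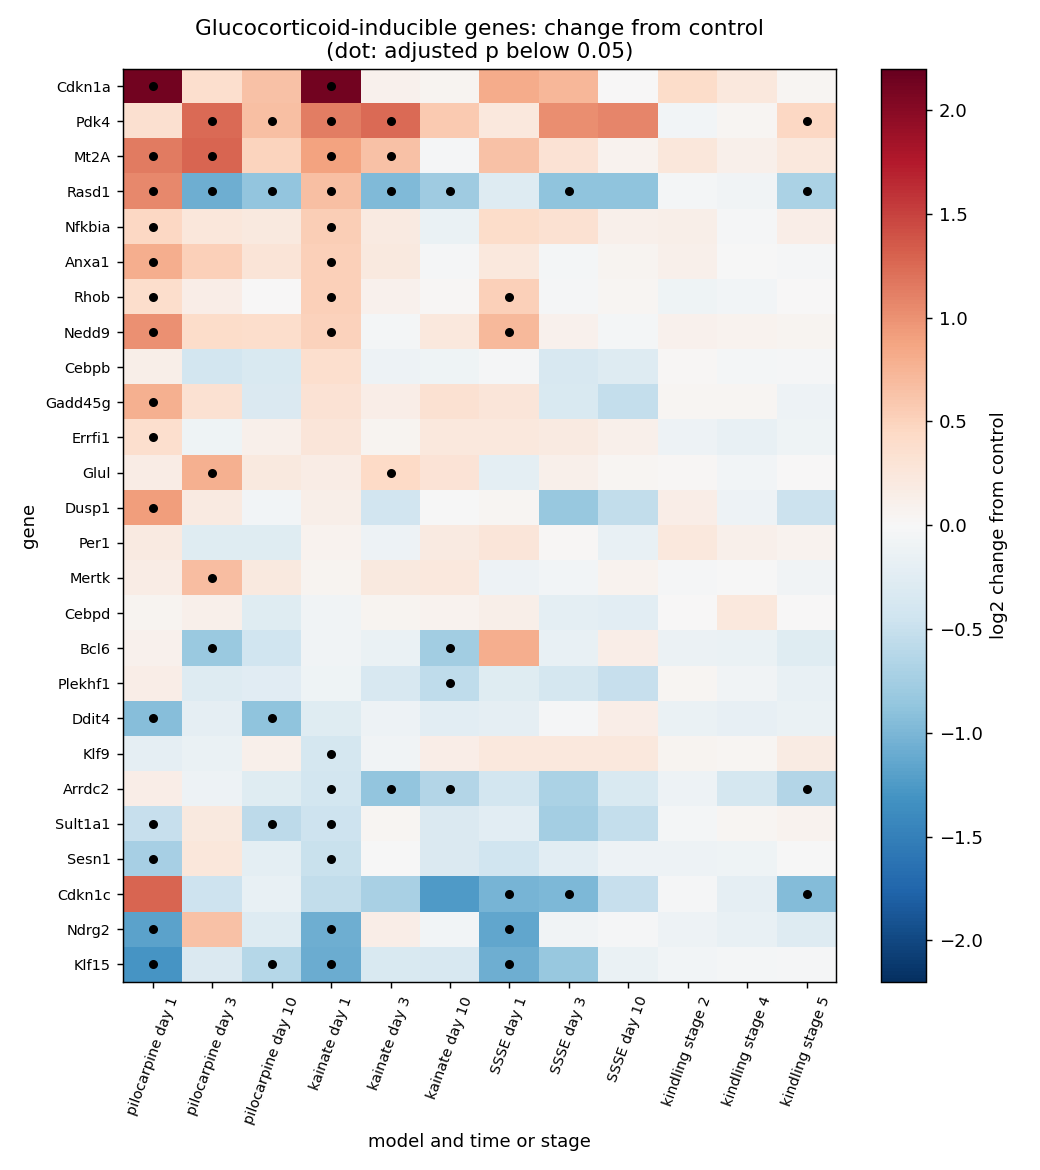
Log2 change from control (colour scale) of the 26 glucocorticoid-inducible genes (rows) in the 12 comparisons (columns), ordered by the kainate day 1 change, with dots for adjusted p below 0.05. Cdkn1a stands at 2.13 and 2.12 at day 1 of pilocarpine and kainate, while Klf15 and Ndrg2 are below 0 at day 1 of pilocarpine, kainate and SSSE.

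Of 8 receptor chaperone genes, 2 rose at day 1 in pilocarpine, where 15.8% of all genes did, 2 in kainate (22.2%, near the share of the list) and 1 in SSSE (5.51%). The Hsp40 gene Dnajb1 rose in all 3 models, by 0.54, 0.57 and 0.56, and Stip1, which links Hsp70 to Hsp90, by 0.41 and 0.45 in pilocarpine and kainate. Fkbp4, whose protein competes with that of Fkbp5 on the receptor complex, fell at days 3 and 10 of pilocarpine by 0.55 and 0.57 on the log2 scale. Of 10 coregulator genes, 3 fell and 0 rose in pilocarpine at day 1 (16.3% and 15.8% of all genes), 3 fell and 1 rose in kainate (19.4% and 22.2%), and 1 fell and 1 rose in SSSE (7.02% and 5.51%, near the shares of the list). Nrip1, a corepressor, fell by 0.87, 1.01 and 0.76, and Ncoa1, a coactivator, fell by 0.65 in pilocarpine and by 0.53 in kainate. Of 6 kinases and partners of Sgk1, 1 rose and 1 fell at day 1 in pilocarpine, 1 rose and 2 fell in kainate and 1 rose and 0 fell in SSSE, against the same shares of all genes. Nedd4l, a ubiquitin ligase that the kinase restrains, rose at day 1 by 0.6, 0.37 and 0.41 in pilocarpine, kainate and SSSE. Ndrg1, an SGK substrate, fell by 0.45 and 0.39 in pilocarpine and kainate. Of the 3 other TSC22 genes, only Tsc22d1 passed. It rose at day 1 by 0.68 in pilocarpine and by 0.33 in kainate, where 15.8% and 22.2% of all genes rose. H6pd, which supplies cofactor to the enzyme of Hsd11b1, was the only tested gene of steroid metabolism and did not pass in any of the 12 comparisons. No gene of the other steroid receptors was tested.

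Genes whose levels followed each of the 6 over the 164 rats were sought after centring on the laboratory, passing over provisional symbols (LOC, RGD, MGC). The closest were Dab1 and Col25a1 for Nr3c1 (r = 0.77 for each), Kcnj6 and Pcdh20 for Nr3c2 (0.62 and 0.6) and Pmepa1 and Elmo2 for Fkbp5 (0.61 and 0.58). For Sgk1 they were Fbxo33 and Spry2 (0.64 and 0.56), for Tsc22d3 Rwdd3 and Frat2 (0.63 for each) and for Hsd11b1 Slco1c1 and Vcam1 (0.66 and 0.61). With group means removed, r was 0.53 and 0.51 for the pair of Nr3c1 and 0.61 and 0.6 for that of Hsd11b1. This step took out the average change of each group, but not differences in response between rats of the same group. Dab1, the adaptor of reelin signalling, changed at day 1 by -1.05 in pilocarpine and -0.86 in kainate, and Col25a1, a collagen gene, by -2.71 and -2.51.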

How the data were processed

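RNA of granule cells from 164 rats was measured on 172 arrays. The authors deposited linear signal intensity per probe set, made with MAS5 (no version) per the submitters' processing notes; the trimmed means show that each array had been scaled to a common level, and intensities were not scaled again. The genome build behind the array is not given in the sources used here. Intensities were taken as log2(signal + 16), and the 2 arrays of 8 rats were averaged. Probe sets with 1 gene symbol that lay above their array's median in at least 6 rats were kept, 14277 in all, and each gene was read from its brightest. limma 3.58.1 (R 4.3.3) was fitted once per model with 1 mean per group, and each time was compared with its own laboratory's controls, averaged over laboratories. P-values were adjusted by Benjamini-Hochberg over 10758 genes. Differences between models came from 1 fit over all 28 groups. The number of arrays limits the precision. The fit was tested on simulated data. The rats are separate animals per the labels. Rat numbers were not taken as pairs. The 6 genes, the gene lists and the tests were chosen with earlier results of these data known. All 6 genes were named in every comparison. Of each list, up to 3 called genes per comparison were taken by size. The likeness rule took the 2 best correlated genes, passing over provisional symbols. Alternatives are given in the closing section. Sequences are from RefSeq.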

Additional observations from a re-analysis of the deposited data

Results flagged for a closer look

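The tests between times and models that passed are given here with their sizes. In pilocarpine rats, Nr3c1, Tsc22d3 and Hsd11b1 were higher at day 3 than at day 1 by 0.49, 0.48 and 0.68 on the log2 scale. Nr3c1 and Tsc22d3 were higher at day 10 than at day 1 by 0.61 and 0.5, and for Hsd11b1 day 10 minus day 3 was -0.81. The rises of Tsc22d3 and Hsd11b1 in these tests came mostly from laboratory A. In kainate rats, Nr3c1 was higher at day 3 than at day 1 by 0.57, at day 10 than at day 1 by 0.97 and at day 10 than at day 3 by 0.39. Fkbp5 went the other way, with -0.55 from day 1 to day 3 and -0.81 from day 1 to day 10. In kindling, Nr3c1 at stage 5 minus stage 2 was -0.24. For Nr3c2 the day 1 change of pilocarpine minus that of SSSE was -0.77. The adjusted p-values are in the account of each gene.

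Single rats stood apart from their group in 8 of 168 tests of a group for a gene, by Dixon's ratio, which flags about 1 group in 20 by chance. Nr3c1 was at 7.18 in rat 1 of pilocarpine A day 1, where the others ran from 8.01 to 8.5. Nr3c2 was at 11.14 in rat 3 of the pilocarpine B controls (others 10.38 to 10.65) and at 9.96 in rat 5 of the SSSE controls (others 10.22 to 10.29). Fkbp5 was at 9.05 in rat 4 of the kainate B controls (others 7.98 to 8.36). Sgk1 was at 9.62 in rat 1 of kindling B stage 5 (others 9.07 to 9.27). Hsd11b1 was at 5.93 in the same rat (others 6.74 to 7.21), at 6.66 in rat 1 of kainate B day 10 (others 7.34 to 7.61) and at 7.06 in rat 3 of the kindling A controls (others 7.43 to 7.65).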

How the results depend on the processing

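Of 1326 recomputed changes of the 6 genes, 1211 kept their direction and their side of the threshold, 47 lost a call, 23 gained one and 45 turned direction. None of the 45 was called in either fit, and the largest was 0.32 in size. Quantile normalization changed none, nor did leaving out rat 4 of kindling A stage 2, of which the title names kainate. In SSSE each rat was left out in turn, and in the other models only the 6 rats that stood apart for a gene. The laboratories alone and these 6 rats were added after the data were seen. The cause of the changes below was not tested, except that a laboratory alone has fewer rats.

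With SSSE day 1 rat 3 as a control, Fkbp5 in SSSE was 0.45, -0.07 and -0.07 at days 1, 3 and 10, Nr3c1 at day 1 -0.65, Sgk1 at day 10 0.19, Tsc22d3 at day 1 -0.05, and 0 genes passed at day 1. With all 28 groups together, Fkbp5 at SSSE day 1 (0.57), Nr3c1 at kindling stage 5 (-0.24) and Sgk1 there (0.31) lost their calls, and 1 gene passed at SSSE day 1, 1 at kainate day 10 and 0 at stage 5. With array quality weights, Fkbp5 was -0.01 at SSSE day 3 and -0.03 at kainate day 3, Nr3c1 0.01 at kindling stage 4 and Sgk1 0.31 at pilocarpine day 1, and 4, 2 and 1 genes passed at SSSE days 1, 3 and 10. With the first array of repeated rats, Fkbp5 and Hsd11b1 at pilocarpine day 3 were -0.01 and -0.04, and with the repeat array Fkbp5 at SSSE day 1 was 0.57 and 1 gene passed. With no filter on dim probe sets, it was 0.57 and 1 gene passed. With 1 added before log2, it was 0.59, 1 gene passed, and Hsd11b1 at pilocarpine day 3 was -0.01; with 64 added, Fkbp5 at kainate day 3 was 0. With the next brightest probe set, Fkbp5 was 0.69 at SSSE day 1, 0.09 at kindling stage 4 and -0.2 at pilocarpine day 3. Without the other 6 rats, those with a low correlation with their groups, Fkbp5 at SSSE day 3 was -0.12, Nr3c2 at kainate day 10 0.01, Hsd11b1 and Nr3c2 at pilocarpine day 10 -0.58 and -0.44, and 0 genes passed there.

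Laboratory A alone lost 8 of 15 calls and laboratory B alone 10, and the values of these and of changes that turned direction follow. In laboratory A alone, Fkbp5 was 0.24 and -0.17 at kainate days 1 and 3. Hsd11b1 was -0.66 at kainate day 3, 0 at kindling stage 5, and -0.91 and -0.63 at pilocarpine days 1 and 10. Nr3c1 was -0.31 at kainate day 3 and -0.15 and -0.38 at kindling stages 2 and 5. Nr3c2 was 0.05 and 0.04 at kindling stages 4 and 5 and -0.69 at pilocarpine day 10, Sgk1 0.28 at stage 5 and Tsc22d3 0.1 at pilocarpine day 10. In laboratory B alone, Fkbp5 was 0.04 and -0.01 at kindling stages 4 and 5 and -0.14 at pilocarpine day 3. Hsd11b1 was -0.4 at kainate day 3 and -0.45 and -0.32 at pilocarpine days 1 and 3. Nr3c1 was 0.21 and -0.09 at kindling stages 4 and 5, and Nr3c2 -0.47, -0.4 and -0.53 at pilocarpine days 1, 3 and 10. Sgk1 was 0.33 at stage 5 and 0.02 and 0.53 at pilocarpine days 1 and 3, and Tsc22d3 0.02 at kainate day 3 and -0.38 at pilocarpine day 1.

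Rat numbers were not taken as pairs, since the labels name nothing that equal numbers share and only 88 of 240 pairs had a correlation over 0.1. Still, 50 of 164 rats were most like a rat of their own number, against 27.2 by chance. The rat number as a replicate block lost no call. It gained Hsd11b1 at SSSE day 1 (-0.41, adjusted p = 0.0149) and Tsc22d3 at kindling stage 5 (-0.29, adjusted p = 0.048) and turned Sgk1 at SSSE day 10 to 0.06. Leaving out 1 rat, Fkbp5 in SSSE ran from 0.5 to 0.65 at day 1, from -0.12 to 0.14 at day 3 and from -0.06 to 0.14 at day 10, and Tsc22d3 from -0.12 to 0.14, from -0.2 to 0.06 and from -0.27 to 0. Sgk1 at SSSE day 10 ran from -0.06 to 0.02 and Fkbp5 at kindling stage 4 from -0.03 to 0.01. Sgk1 ran from 0.27 (without rat 1 of laboratory B stage 5) to 0.3 at kindling stage 5 and from 0.35 (without rat 1 of laboratory A day 1) to 0.41 at pilocarpine day 1. The genes passing ran from 1 to 3 at SSSE day 1, from 0 to 1 at kainate day 10 and from 1 to 2 at kindling stage 5.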
